A study of Mus musculus with 8 samples.

Results

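The genes described here are p53 and a set of its transcriptional targets: Trp53, Mdm2, Trp53inp1, Sesn1, Sesn2, Sesn3, Zmat3, Ccng1, Phlda3 and Perp. They were taken by name, and every probe set that the platform annotation pairs with exactly 1 of these symbols was used. This gave 19 probe sets for 9 of the 10 genes, among 18193 genes on the array. Trp53 itself was not analysed here. For each gene the probe set with the highest mean over the 8 arrays stood for the gene, and the others are given beside it. All 4 groups were made from T29, a thymic lymphoma cell line of the mouse, described by its submitters as Ikaros-deficient. The cells were transduced with the retroviral vector MigR1, or with MigR1-Ik1ER, which carries an inducible form of Ikaros. Both were treated for 24 h with ethanol or with 100 nM 4OHT (4-hydroxytamoxifen), the ligand that switches on the inducible protein, which gave 4 groups of 2 Affymetrix arrays. The labels state neither whether the transduced cells were single clones nor whether a group's 2 arrays hold RNA of different cultures, so p-values measure only the spread between these arrays.

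p53, the product of Trp53, is a transcription factor that is stabilised by DNA damage and other stress. It binds a pair of half-sites in DNA and switches on genes for growth arrest, repair, metabolism and cell death. One of its targets, Mdm2, encodes the ubiquitin ligase that marks p53 for destruction, which closes a feedback loop. In the thymus p53 removes cells with broken DNA, and its loss is a common route to thymic lymphoma in mice. Several of these genes answer to other factors as well, Sesn3 to FOXO proteins and Perp to p63.

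RefSeq promoter sequences (GRCm38.p6) were held for 8 transcription starts of 7 of the 10 genes. None was held for Trp53inp1, Zmat3 and Perp, so the called genes Trp53inp1 and Zmat3 are absent from the motif counts. The 250 bases before 5 of these starts are shown. Sesn1 and Sesn3 were called higher with 4OHT in Ik1ER cells, and Mdm2 and Ccng1 were not called. Whether these genes differ in response was not tested. The bases are written 5′ to 3′ toward the start. Capitals mark each match to the p53 half-site consensus (10 bases) or to TGGGAA, a core motif of Ikaros family proteins, on either strand. The matches of the 2 motifs did not overlap.
Sesn1, first start, chr10:41810324-41810573, plus strand: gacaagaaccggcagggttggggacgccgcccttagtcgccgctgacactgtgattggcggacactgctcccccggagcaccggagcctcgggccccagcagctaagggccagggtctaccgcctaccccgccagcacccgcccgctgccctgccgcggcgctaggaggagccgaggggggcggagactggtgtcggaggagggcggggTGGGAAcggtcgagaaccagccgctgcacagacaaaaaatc
Sesn1, second start, chr10:41887189-41887438, plus strand: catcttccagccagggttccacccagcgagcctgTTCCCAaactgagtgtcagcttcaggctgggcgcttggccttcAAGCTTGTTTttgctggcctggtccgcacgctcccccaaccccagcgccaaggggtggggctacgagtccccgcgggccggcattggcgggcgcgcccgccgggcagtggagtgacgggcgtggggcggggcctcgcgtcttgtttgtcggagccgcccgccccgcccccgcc
Sesn3, chr9:14276051-14276300, plus strand: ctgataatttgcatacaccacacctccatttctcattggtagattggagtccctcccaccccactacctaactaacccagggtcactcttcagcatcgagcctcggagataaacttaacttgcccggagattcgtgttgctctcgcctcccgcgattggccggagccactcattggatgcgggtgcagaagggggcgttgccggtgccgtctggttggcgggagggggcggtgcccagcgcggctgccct
Mdm2, chr10:117710759-117711008, minus strand: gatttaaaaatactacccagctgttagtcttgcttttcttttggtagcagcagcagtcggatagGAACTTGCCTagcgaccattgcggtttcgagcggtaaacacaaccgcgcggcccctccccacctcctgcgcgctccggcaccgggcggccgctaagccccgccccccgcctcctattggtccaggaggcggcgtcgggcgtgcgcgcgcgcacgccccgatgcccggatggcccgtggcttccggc
Ccng1, chr11:40755287-40755536, minus strand: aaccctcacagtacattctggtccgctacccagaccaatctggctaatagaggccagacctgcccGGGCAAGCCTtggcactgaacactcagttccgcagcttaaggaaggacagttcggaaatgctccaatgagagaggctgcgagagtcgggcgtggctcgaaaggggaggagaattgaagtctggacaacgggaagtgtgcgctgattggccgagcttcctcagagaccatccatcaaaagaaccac
In Mdm2 the capitals are the half-site GAACTTGCCT, which begins 186 bases before the start, and in Ccng1 the half-site GGGCAAGCCT, 185 bases before it. The second start of Sesn1 has both motifs, the half-site AAGCTTGTTT at 173 bases and TTCCCA, the reverse complement of TGGGAA, at 216 bases. The first start of Sesn1 has only TGGGAA, 41 bases upstream, and Sesn3 has neither motif in this window. Counting the promoters of Trp53, Sesn2 and Phlda3 too, 4 of 8 held a half-site, against 7.13% of all 32851 promoters of the same length. Of 55 promoters of other p53 targets, listed below, 9 held one (16.4%). The genes were chosen as p53 targets, so their share of half-sites is a description. TGGGAA on either strand was in 3 of 8, against 21.6% of all and 29.1% of those of other p53 targets. These 3 belong to 2 genes, Sesn1 with both its starts and Sesn2, which was not called. A match is a match of letters and does not show binding.

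The T cell label and the construct were checked on the arrays. Of 8 measured T cell markers, 7 had a mean above 5.27 on the log2 scale, the highest mean among 27 Bacillus control probe sets, which served as a gauge of background. Cd5 (4.89) did not. The gauge was also passed by 2 of 5 B cell, 2 of 3 erythroid, 2 of 6 stromal and 1 of 4 NK cell markers. Passing it therefore does not set cell types apart. The highest mean was 13.42 among T cell markers, 9.06 among stromal and 7.76 among erythroid markers. Both probe sets of Ikzf1, the Ikaros gene, were above this gauge without the construct too, with means of 8.23 and 10.28 in MigR1 cells. Ik1ER cells exceeded MigR1 cells by 2.64 at one probe set (log2; p = 0.0286 by a two-sided exact permutation of 4 against 4 arrays, which can give no smaller value) and differed by -0.07 at the other (exact p = 0.514). Esr1, the estrogen receptor gene, was tested in the same way. Ik1ER cells exceeded MigR1 cells by 0.88 at its brightest probe set (exact permutation p = 0.0286). At its others, with means below the gauge, the differences were 0.02 and -0.04 (exact permutation p = 0.657 and 0.6). The summed log2 level of 7 myeloid markers lay between 34.7 and 35.1 in Ik1ER cells in 4OHT and between 36.2 and 36.5 on the other 6 arrays. Of these 7 markers, 3 had a mean above the highest Bacillus control. They did not vary alike, so the sum does not show a change of all 7. Over the 8 arrays Cd14 ranged from 5.60 to 6.95 and Lyz2 from 4.82 to 5.65, but Csf1r from 6.25 to 6.55 and Fcgr3 from 4.18 to 4.37. Both replicate 2 arrays of Ik1ER cells stood apart in a control for RNA quality, the excess of the 3′ over the 5′ signal of the transferrin receptor. It was 1.66 (ethanol) and 1.91 (4OHT) there, while the remaining 6 arrays lay between 1.155 and 1.39. The mean of the hybridisation controls was 8.86 on the Ik1ER 4OHT replicate 2 array, against 9.41 to 9.54 on the others. The mean 18S RNA signal was 10.07 on the Ik1ER ethanol replicate 2 array, against 8.54 to 9.18 on the others. The part of these readings and of the myeloid markers in the results below was not tested. Each called member is also given without both replicate 2 arrays of Ik1ER cells. In a bulk sample, fewer cells that express a gene and less RNA per cell cannot be told apart.

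The main comparison, 4OHT against ethanol in Ik1ER cells, asks what changes when Ikaros activity is restored. Of the 9 measured genes, 4 rose (Trp53inp1, Sesn3, Zmat3 and Sesn1), none fell and 5 were not called by limma at an adjusted p under 0.05. Over all genes 5.34% were called, 2.8% higher and 2.53% lower. All 9 differences were above 0, with a median of 0.34 on the log2 scale, against -0.0044 over all genes. For 8 of the 9, all but Perp, both 4OHT arrays lay above both ethanol arrays, which held for 21% of all genes (21.7% lay below in the same way). The genes were chosen with earlier results of these arrays known, so their shared direction is a description.

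**Figure D1:**
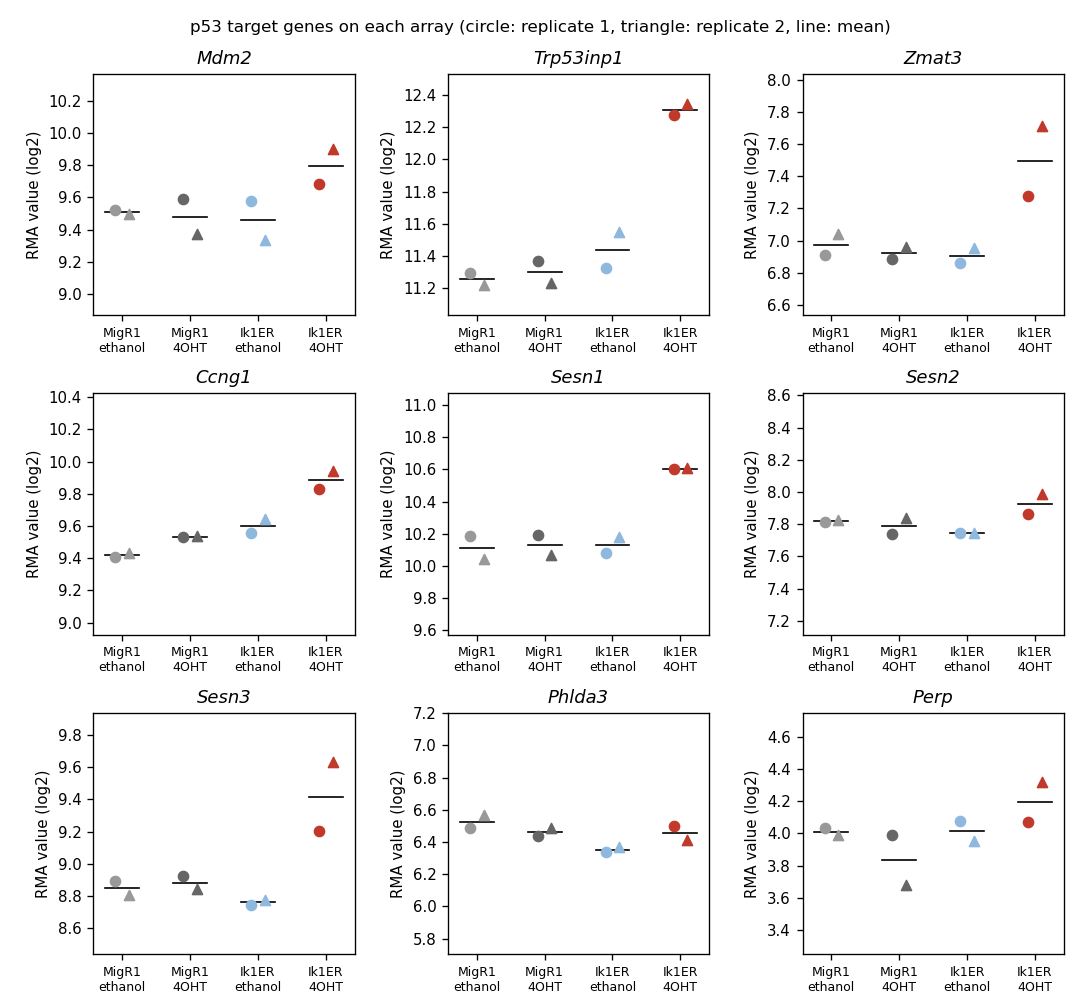
RMA values (log2, vertical axes, each spanning 1.5 units) of the 9 genes on the 8 arrays, by group on the horizontal axis; circles are replicate 1, triangles replicate 2 and lines the mean of 2 arrays. Trp53inp1 on the Ik1ER 4OHT arrays read 12.28 and 12.34, above the highest other array at 11.55, while Phlda3 stayed between 6.34 and 6.57 on all 8.

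Trp53inp1, which encodes a stress-induced nuclear protein that promotes p53-dependent cell death and autophagy, had the largest difference of the 9. Its values in MigR1 cells were 11.29 and 11.22 in ethanol and 11.37 and 11.24 in 4OHT. In Ik1ER cells they were 11.33 and 11.55 in ethanol and 12.28 and 12.34 in 4OHT. The 2 Ik1ER 4OHT arrays thus stood clear of the other 6, which overlapped between lines and treatments except that both Ik1ER ethanol arrays lay above both MigR1 ethanol arrays. The rise in Ik1ER cells was 0.87 (SE 0.10, 1.83-fold, limma, adjusted p = 0.00231), in place 112 by size among the 510 genes called higher. In MigR1 cells the difference was 0.04 (SE 0.10, 95% interval -0.18 to 0.26). The rise was called with each of the 8 arrays left out (adjusted p from 0.00618 to 0.0164) and was 0.95 without both replicate 2 arrays of Ik1ER cells. The gene's other probe set differed by 0.74 (SE 0.20, adjusted p over all probe sets not under 0.05), with Ik1ER values of 7.69 and 7.64 in ethanol and 8.76 and 8.04 in 4OHT.

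The sestrins, encoded by Sesn1, Sesn2 and Sesn3, are stress-induced proteins that restrain the growth kinase complex mTORC1 and limit oxidative damage. Sesn1 read 10.19 and 10.04 in ethanol-treated MigR1 cells and 10.19 and 10.07 in 4OHT. In Ik1ER cells it read 10.08 and 10.18 in ethanol, and 10.60 and 10.61 in 4OHT. At this probe set only the Ik1ER 4OHT arrays were set apart, with the other 6 arrays overlapping. The rise was 0.48 (SE 0.08, 1.39-fold, limma, adjusted p = 0.0175). The call was lost with the groups compared alone (0.0644) and without both replicate 2 arrays of Ik1ER cells (0.52, adjusted p = 0.113), and also without any 1 of the 4 Ik1ER arrays (adjusted p at most 0.108). The probe sets of Sesn1 differed in size. The other 3 (means 8.83, 8.71 and 5.03) gave differences of 0.16, 0.25 and 0.29, none of them called, and their mean with the first was 0.29 (limma, adjusted p = 0.0646). The brightest of these 3 read 8.83 and 9.04 in Ik1ER cells in ethanol and 9.03 and 9.17 in 4OHT, which overlap.

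Sesn3, the sestrin gene under FOXO control, read 8.89 and 8.81 in ethanol-treated MigR1 cells and 8.92 and 8.85 in 4OHT. In Ik1ER cells it read 8.75 and 8.77 in ethanol and 9.20 and 9.63 in 4OHT. Both Ik1ER 4OHT arrays were above the other 6 arrays, and the replicate 2 array was the higher. The rise was 0.66 (SE 0.13, 1.57-fold, limma, adjusted p = 0.0259), and not called with the groups compared alone (0.113). Its second probe set gave 0.56 and was not called over all probe sets. The call was kept only when an Ik1ER 4OHT array was left out and was lost without any of the other 6 (adjusted p at most 0.125). Without both replicate 2 arrays of Ik1ER cells the rise was 0.46 (adjusted p = 0.1).

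Sesn2, the sestrin gene also induced by the integrated stress response, moved little. It read 7.82 and 7.83 in ethanol-treated MigR1 cells, 7.74 and 7.84 in 4OHT, 7.75 and 7.75 in Ik1ER cells in ethanol and 7.86 and 7.99 in 4OHT. The Ik1ER 4OHT arrays were the highest of the 8. The difference in Ik1ER cells was 0.18 (SE 0.08, 95% interval 0.0028 to 0.35, limma, adjusted p = 0.274), and its second probe set gave 0.27. Whether the sestrins differ in response from one another was not tested.

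Zmat3 encodes a zinc finger RNA-binding protein that acts in p53-dependent growth suppression. Its only probe set read 6.91 and 7.04 in ethanol-treated MigR1 cells, and 6.89 and 6.96 in 4OHT. In Ik1ER cells it read 6.86 and 6.95 in ethanol, and 7.28 and 7.715 in 4OHT. As for Sesn3, both Ik1ER 4OHT arrays exceeded all others and the replicate 2 array was the higher. The rise was 0.59 (SE 0.14, 1.51-fold, limma, adjusted p = 0.0472). The call was lost with median centring (0.0541), over all probe sets (0.0866) and with the groups compared alone (0.162). The call was kept only without Ik1ER 4OHT replicate 1, where the rise was 0.81, and was lost without any of the other 7 arrays (adjusted p at most 0.203), with 0.37 without Ik1ER 4OHT replicate 2. With the replicate 2 arrays of both Ik1ER groups removed the rise was 0.42 (adjusted p = 0.148).

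Mdm2, the ubiquitin ligase gene and p53's own inhibitor, read 9.52 and 9.50 in ethanol-treated MigR1 cells, and 9.59 and 9.37 in 4OHT. In Ik1ER cells it read 9.58 and 9.34 in ethanol, and 9.68 and 9.90 in 4OHT. The 2 Ik1ER 4OHT arrays were the highest of the 8, with replicate 2 the higher. The difference was 0.34 (SE 0.12, 95% interval 0.06 to 0.61, limma, adjusted p = 0.179), or 0.11 once the replicate 2 arrays of both Ik1ER groups were removed. The probe sets of Mdm2 differed in direction. A second one gave 0.58, with an Ik1ER ethanol replicate 2 value of 8.39 below all other arrays. The remaining one, below the highest Bacillus control at a mean of 3.62, gave -0.23. None of the 3 was called.

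Ccng1 encodes cyclin G1, a p53-induced cyclin that recruits a phosphatase to MDM2. It read 9.41 and 9.43 in ethanol-treated MigR1 cells, 9.53 and 9.54 in 4OHT, 9.56 and 9.64 in Ik1ER cells in ethanol and 9.83 and 9.94 in 4OHT. The groups lay in this order with no overlap. The 4OHT difference was 0.29 in Ik1ER cells (SE 0.07, 95% interval 0.11 to 0.46, limma, adjusted p = 0.0753) and 0.12 in MigR1 cells (SE 0.07, 95% interval -0.06 to 0.29, adjusted p = 1). Its other probe sets gave 0.33 and 0.35 in Ik1ER cells and 0.17 and 0.12 in MigR1 cells. Unlike the other 8 genes, Ccng1 had both MigR1 4OHT arrays above both MigR1 ethanol arrays, as had 16.5% of all genes, and no member had both below, as had 13.2%. Its Ik1ER difference was called with dim genes left out (adjusted p = 0.0367), with trend and robust settings (0.0312) and as the mean of its probe sets (0.0364).

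Phlda3 encodes an inhibitor of AKT at the membrane, and Perp a membrane protein of desmosomes that p53 uses in cell death. Phlda3 read 6.34 and 6.37 in Ik1ER cells in ethanol and 6.50 and 6.41 in 4OHT, against 6.44 to 6.57 in MigR1 cells. The difference in Ik1ER cells was 0.10 (SE 0.07, 95% interval -0.07 to 0.27, limma, adjusted p = 0.561), so that a change above 0.27 lies outside the interval. Perp read between 3.68 and 4.32 on all arrays, below the highest Bacillus control. Its difference of 0.18 (adjusted p = 0.545) became -0.01 without both replicate 2 arrays of Ik1ER cells.

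**Figure D2:**
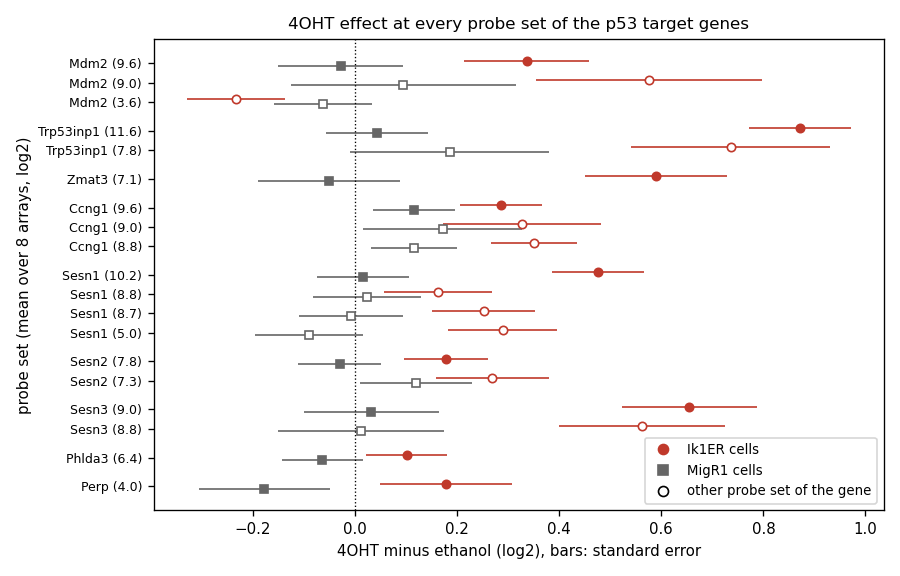
Difference between 4OHT and ethanol (log2, horizontal axis; bars are limma standard errors) at each of the 19 probe sets, named on the vertical axis with the mean over 8 arrays; red circles are Ik1ER cells, grey squares MigR1 cells, and filled symbols the probe set that stands for the gene. Every probe set but the dim one of Mdm2 (-0.23) lies above 0 in Ik1ER cells, from 0.10 for Phlda3 to 0.87 for Trp53inp1.

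The vector line shows what 4OHT did without the construct. None of the 9 genes was called by limma in MigR1 cells, where 0% of genes were called. At an unadjusted p under 0.05 the counts were 0 of 9 members and 386 of 18193 genes. The differences of the 9 ran from -0.18 (Perp) to 0.12 (Ccng1), 4 above 0 and 5 below, with a median of -0.03. Of these, the signs of Mdm2, Trp53inp1, Sesn1, Sesn2, Sesn3 and Zmat3 turned under at least 1 alternative setting. The difference between the 4OHT effects of the lines was tested directly and shares its Ik1ER arrays with the comparison above. It was called for Trp53inp1 alone of the 9, at 0.83 (SE 0.13, limma, adjusted p = 0.0323), against 1.26% of all genes called, 0.616% in this direction and 0.649% in the other. With 1 array left out this call was kept only without Ik1ER ethanol replicate 2 and was lost without any of the other 7 (adjusted p at most 0.138). It was also lost as the mean over probe sets (0.69, adjusted p = 0.0659), over all probe sets (0.0721) and without both replicate 2 arrays of Ik1ER cells (0.91, adjusted p = 0.0688). For Zmat3 (0.64, SE 0.19, adjusted p = 0.210), Sesn3 (0.62, SE 0.18, adjusted p = 0.198) and Sesn1 (0.46, SE 0.12, adjusted p = 0.144) the difference did not pass, so their rise in Ik1ER cells is not shown to differ from the effect in MigR1 cells. With trend and robust settings Sesn1 passed (adjusted p = 0.0469). All 9 differences were above 0, from 0.17 for Phlda3 upward, as were those of 8899 of 18193 genes. The 9 genes were chosen with earlier results known, so this too is a description.

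**Figure D3:**
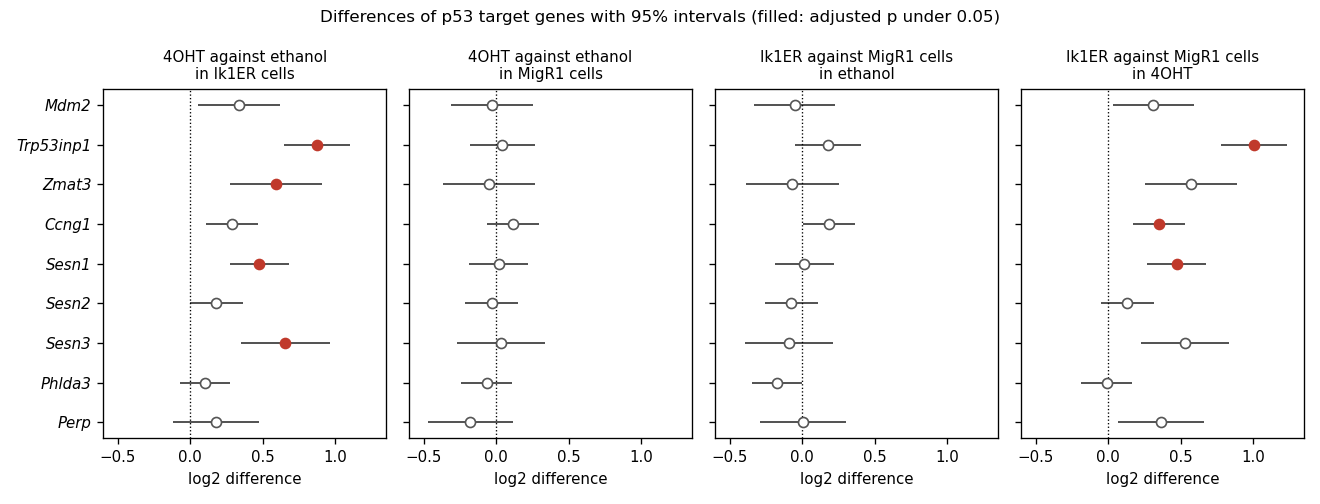
Log2 differences (horizontal axes) of the 9 genes (vertical axis) in 4 comparisons, with 95% intervals from limma; filled red points have an adjusted p under 0.05 over 18193 genes. In Ik1ER cells 4 genes are filled for 4OHT against ethanol, none in MigR1 cells or between the lines in ethanol, and 3 between the lines in 4OHT.

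The lines were also compared directly at each treatment, on the same arrays. In ethanol, where the inducible protein should be inactive, none of the 9 genes was called by limma, nor any gene (0%), and 2 of 9 members and 968 of 18193 genes had an unadjusted p under 0.05. These 2 were Ccng1, with a difference of 0.18, and Phlda3, with -0.17. Both Ik1ER arrays lay above both MigR1 arrays for Trp53inp1 and Ccng1, as for 20.7% of all genes, and below them for Sesn2, Sesn3 and Phlda3, as for 16.8%. In 4OHT 3 of 9 were higher in the Ik1ER line, and none was lower, against 2.91% and 2.17% of all genes (5.08% together). Trp53inp1 was higher by 1.01 (SE 0.10, 2.01-fold, limma, adjusted p = 0.00136), Sesn1 by 0.47 (SE 0.08, adjusted p = 0.0197) and Ccng1 by 0.35 (SE 0.07, adjusted p = 0.0360). Zmat3 (0.57, adjusted p = 0.0551) and Sesn3 (0.53, adjusted p = 0.0603) missed the threshold. Both were called with dim genes left out (0.0404 and 0.0434), with trend and robust settings (0.0297 and 0.0233), with repeated quantile normalization (0.0351 and 0.0440), as means over probe sets (0.0436 and 0.0438) and without Ik1ER 4OHT replicate 1, and Zmat3 also with the replicate block (0.0230). Without Ik1ER 4OHT replicate 2 the differences were 0.36 for Zmat3 and 0.32 for Sesn3, neither called. For 8 of 9 genes both Ik1ER arrays lay above both MigR1 arrays, as they did for 22.2% of all genes, and for none below, as for 22.6%. The exception was Phlda3 (-0.0078), whose sign turned with repeated quantile normalization, with median centring and without an Ik1ER 4OHT replicate 2 or MigR1 4OHT replicate 2 array. The 4 probe sets of Sesn1 gave differences from 0.24 to 0.47 here, and only the one that stands for the gene was called over all probe sets. In ethanol the same probe sets gave 0.01 for the one that stands for the gene and 0.31, 0.21 and -0.14 for the others, none called. Part of the difference in 4OHT was thus already seen in ethanol at the probe sets of 0.31 and 0.21. Trp53inp1 was called with each array left out. For Sesn1 the call needed all 4 arrays in 4OHT (without 1 of them, adjusted p at most 0.151). With 1 array left out Ccng1 kept its call only without Ik1ER 4OHT replicate 1 (at most 0.184), and it lost it over all probe sets (0.0799). With the groups compared alone neither Sesn1 (0.0620) nor Ccng1 (0.13) was called. Without both replicate 2 arrays of Ik1ER cells Trp53inp1 was higher by 0.97 (adjusted p = 0.0136), while Sesn1 (0.47, adjusted p = 0.0882) and Ccng1 (0.295, adjusted p = 0.117) were not called.

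Other genes of the pathway moved in both directions. Of 47 other p53 targets listed, 44 were measured, of which 3 rose in Ik1ER cells with 4OHT, 2 fell and 39 were not called, against 2.8% and 2.53% of all genes. The median was 0.03, against -0.0044 over all genes. Trp53inp2, a relative of Trp53inp1 with a role in autophagy that was listed with it, rose by 1.14 (SE 0.16, 2.20-fold, limma, adjusted p = 0.00714). Btg2, an antiproliferative gene, rose by 0.58 (SE 0.08, adjusted p = 0.00734), a call lost without Ik1ER ethanol replicate 2 (0.0537). The death receptor gene Fas rose by 0.68 (SE 0.10, adjusted p = 0.00873), a call lost without Ik1ER ethanol replicate 1 (0.0538). Its means of 4.49 and 5.17 lie below the highest Bacillus control. Psrc1, which encodes a microtubule-binding protein of the mitotic spindle, fell by 0.70 (SE 0.08, adjusted p = 0.00220) and was still called with any 1 array removed. The phosphatase gene Ptpn14 fell by 0.35 (SE 0.08, adjusted p = 0.0430), but 2 other probe sets gave 0.08 and -0.13, and with 1 array left out the call was kept only without Ik1ER 4OHT replicate 2 (at most 0.212). It was also lost without both replicate 2 arrays of Ik1ER cells (0.118), where the other 4 genes stayed called, with median centring (0.0515), over all probe sets (0.0923) and as the mean over probe sets (-0.13, adjusted p = 0.551). With the groups compared alone Btg2 (0.0546), Fas (0.0599) and Ptpn14 (0.181) were not called.

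Cdkn1a and Bbc3 were among the 39 targets not called, and are named here after their values were seen. Cdkn1a, the cell cycle inhibitor p21, read 9.99 and 10.30 in Ik1ER cells in ethanol and 9.62 and 10.32 in 4OHT. The arrays overlapped, and the difference was -0.17 (SE 0.21, 95% interval -0.66 to 0.32, limma, adjusted p = 0.764), with 0.18 without Ik1ER 4OHT replicate 1. The death gene Bbc3 (Puma) gave 0.27 (SE 0.08, adjusted p = 0.118). Of 24 measured p53 regulators of 26 listed, none was called in Ik1ER cells by limma, 1 had an unadjusted p under 0.05 (against 3230 of 18193 genes), and the median was 0.02. The regulators of smallest p were Daxx (0.21), Rchy1 (0.20), Kat5 (0.15) and Ppp1r13l (-0.14). At the same unadjusted threshold the counts were 7 of 9 members, all higher, and 11 of the 44 targets, 7 higher and 4 lower. The members were chosen with earlier results known. Between the lines in 4OHT, 4 of the 44 targets were higher and 3 lower, against 2.91% and 2.17% of all genes. Besides Trp53inp2, Btg2, Fas, Psrc1 and Ptpn14 these were the stress gene Gadd45a (0.59, SE 0.09, adjusted p = 0.0113) and the receptor gene Notch1 (-0.58, SE 0.13, adjusted p = 0.0408). Gadd45a lost its call without MigR1 4OHT replicate 2 (0.0904), Notch1 kept its own only without Ik1ER 4OHT replicate 2 (at most 0.194). Of the first 5, Psrc1 stayed called with any 1 array removed and Trp53inp2 lost it without MigR1 4OHT replicate 2 (0.0515). Fas and Btg2 lost theirs without either MigR1 4OHT array or Ik1ER 4OHT replicate 1 (at most 0.135 and 0.144), and Ptpn14 without any MigR1 array or Ik1ER 4OHT replicate 1 (at most 0.166). With the groups compared alone Gadd45a, Fas, Btg2, Ptpn14 and Notch1 were not called (0.0520 to 0.137). Ptpn14 and Notch1 also lost their calls as means over probe sets (0.19 and 0.0864) and over all probe sets (0.0611 and 0.0763), and Notch1 with median centring (0.0504).

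**Figure D4:**
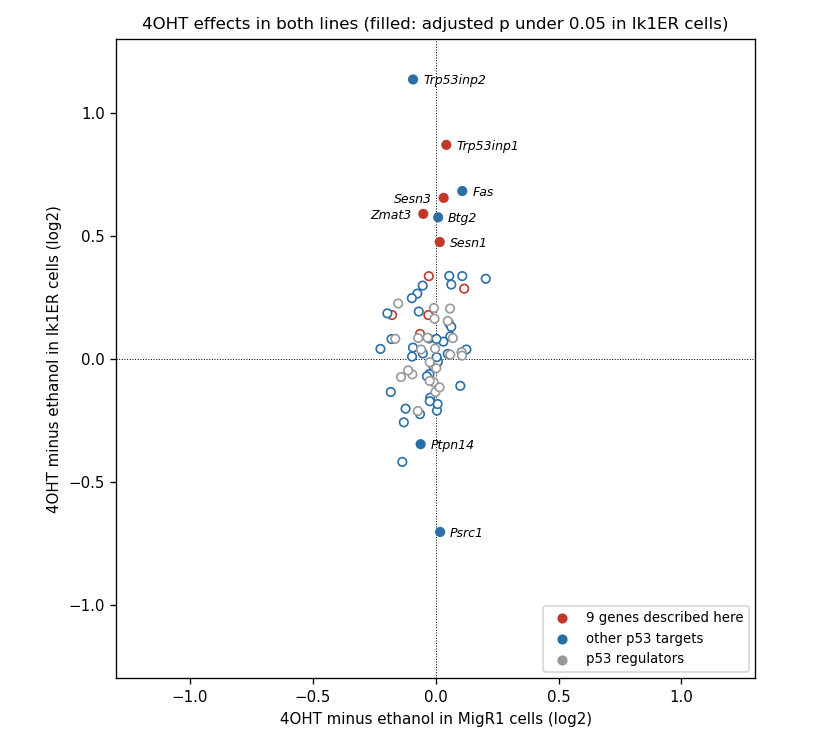
Log2 difference between 4OHT and ethanol in MigR1 cells (horizontal axis) and Ik1ER cells (vertical axis) for the 9 genes described here (red), 44 other p53 targets (blue) and 24 p53 regulators (grey; 1 gene is in both lists); filled points have an adjusted p under 0.05 in Ik1ER cells and are named. The points spread further along the Ik1ER axis, from -0.70 for Psrc1 to 1.14 for Trp53inp2, than along the MigR1 axis.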

How the data were processed

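Total RNA of T29 cells was labelled with biotin and hybridised to Affymetrix arrays. The deposited table holds log2 values made by the authors with RMA, per the submitters' processing notes. RMA sets arrays to a common distribution, so a global shift of RNA cannot be seen and changes of dim genes are compressed. Neither the RMA version nor the probe set definitions were stated, and array medians ranged from 5.36 to 5.43.

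Of 45037 probe sets other than controls, 34945 had 1 gene symbol. The probe set of highest mean stood for each of 18193 genes. Group means over 8 arrays were fitted with lmFit and eBayes of limma 3.58.1 in R 4.3.3 (4 residual degrees of freedom), with Benjamini-Hochberg adjustment over all genes within each of 5 contrasts, or over all probe sets where stated. No filter was applied. Errors are limma standard errors, and a gene was called at an adjusted p under 0.05. Precision is limited by there being 2 arrays in a group.

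The members and lists were chosen with earlier results of these data known. The text names every member, the 4 genes of smallest p and every called gene of 2 further lists, and for each called member the 3 genes with the most similar values. Alternatives were a replicate block, a filter on dim genes, trend and robust settings, repeated quantile normalization, median centring, other uses of the probe sets, fewer groups, and leaving out arrays. Applying them to the listed genes was added after seeing the data.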

Additional observations from a re-analysis of the deposited data

Results flagged for a closer look

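The 4OHT effect differed between the lines by a test of the difference itself for 1 of the 9 genes, against 1.26% of all genes (0.616% in the same direction). For Trp53inp1 it was larger in Ik1ER than in MigR1 cells by 0.828 on the log2 scale (limma, adjusted p = 0.0323), with 0.87 in Ik1ER and 0.04 in MigR1 cells. Both Ik1ER 4OHT arrays were above both Ik1ER ethanol arrays. Of the other listed p53 targets, Psrc1 had such a difference, -0.722 (limma, adjusted p = 0.0235), with -0.70 in Ik1ER and 0.02 in MigR1 cells. Both Ik1ER 4OHT arrays were below both Ik1ER ethanol arrays. Each of the 2 calls was lost without 7 of the 8 arrays in turn (adjusted p at most 0.138 for Trp53inp1 and 0.111 for Psrc1). That of Trp53inp1 was kept only without Ik1ER ethanol replicate 2, and that of Psrc1 only without Ik1ER 4OHT replicate 2. Without both replicate 2 arrays of Ik1ER cells neither was called (0.0688 for Trp53inp1 and 0.0988 for Psrc1), nor as means over probe sets (0.0659 and 0.0715) or over all probe sets (0.0721 and 0.0590).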

How the results depend on the processing

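For the 9 genes over 5 contrasts, 10 of 436 values turned sign under the settings that leave out no single array, and 15 of 360 with 1 array left out. None of these values was called. Without both replicate 2 arrays of Ik1ER cells Perp for 4OHT in Ik1ER cells became -0.011, Mdm2 and Sesn1 between the lines in ethanol 0.069 and -0.035, and Phlda3 between the lines in 4OHT 0.037. Phlda3 there was 0.0056 with repeated quantile normalization and 0.012 with median centring, and Sesn1 in ethanol -0.0036 with quantile normalization. As means over probe sets the MigR1 values of Mdm2, Sesn1 and Sesn2 were 0.0012, -0.014 and 0.045.

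With 1 array left out the MigR1 values ran from -0.14 to 0.082 for Mdm2, -0.024 to 0.11 for Trp53inp1, -0.057 to 0.089 for Sesn1, -0.079 to 0.019 for Sesn2, -0.010 to 0.075 for Sesn3 and -0.12 to 0.016 for Zmat3. Between the lines in ethanol they ran from -0.17 to 0.069 for Mdm2, -0.059 to 0.088 for Sesn1 and -0.055 to 0.070 for Perp. Phlda3 in 4OHT ran from -0.052 to 0.037, and Cdkn1a in Ik1ER cells from -0.53 to 0.18.

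The count of genes called for 4OHT in Ik1ER cells, 971, was 399 with the groups compared alone, 389 without both replicate 2 arrays of Ik1ER cells and 441 to 832 with 1 array left out. It was higher with trend and robust settings (1354) and with dim genes left out (1201). That of the difference between the 4OHT effects, 230, was 444 with trend and robust settings, 90 without both arrays and 52 to 273 with 1 left out. Between the lines in 4OHT it was 925, with 416, 592 and 237 to 805 in the same settings as in Ik1ER cells, 1344 with trend and robust settings and 1200 with dim genes left out. It was 0 in MigR1 cells and 1 with x_at probe sets set aside, and 0 between the lines in ethanol and 1 with means over probe sets; both stayed at 0 with 1 array left out.

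The replicate numbers are not stated to pair the arrays. Deviations of same-numbered arrays correlated at 0.45 between the Ik1ER groups and 0.27 between the MigR1 groups (over genes), and from -0.07 to 0.10 between lines. With the replicate block 1160, 341 and 1073 genes were called in the 3 contrasts above, 0 in the other 2, and of the 9 genes only Zmat3 between the lines in 4OHT changed its call (0.57, limma, adjusted p = 0.0230). With the dim genes left out Perp could not be tested. The cause of these changes was not tested, beyond the smaller numbers of arrays that some settings leave.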

Other observations

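The values of the 4 genes that rose in Ik1ER cells were set against those of all other genes over the 8 arrays, each gene centred on its mean, as a description without a test. The likeness is the mean absolute difference in log2 units, which is smaller for genes of more similar values. Trp53inp1 was nearest to Trpv2 (0.044), which encodes a cation channel, to Cd37 (0.046), a leukocyte tetraspanin gene, and to Trav6-3 (0.048), a T cell receptor alpha variable segment. Sesn1 was nearest to Aagab (0.015), Os9 (0.027) and Rcbtb2 (0.030). Sesn3 was nearest to Gpr162 (0.052), Slc46a3 (0.059) and Dennd3 (0.059). Zmat3 was nearest to Arfgef3 (0.042), Katnal1 (0.050) and Cerk (0.051). None of the 12 genes is in the p53 lists used here. Of the 18193 genes tested, these lists hold 9 members, 44 other p53 targets and 24 regulators. With lists this small, their absence among 12 genes carries little information, and whether the 12 genes are linked to p53 was not tested.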
